A study of Homo sapiens with 10 samples.

Results

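The 41 genes described here are interferon-stimulated genes: classical targets of type I interferon together with 4 of their STAT and IRF regulators (STAT2, IRF1, IRF7 and IRF9). They were chosen as a list of symbols, though with earlier results of these data known. All 41 were found among the 54628 symbols of the deposited gene table. After a filter on low counts, 40 of them were tested among 20125 genes, and MX2 was left out because it was listed at 0 in all 10 libraries.

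Polyadenylated RNA was sequenced from NK-92, an established human cell line that derives from a natural killer (NK) cell lymphoma, so every library comes from 1 line. The 5 groups hold 2 libraries each: untreated cells labelled 0 h, cells given 500 µM DFO (deferoxamine, an iron chelator) for 6 h or 24 h, and cells given 10 µg/mL PPMX-T003, here T003, an antibody against the transferrin receptor, for 6 h or 24 h. The series' design text mentions only treatment for 24 h, and the 6 h groups follow the labels of the single samples. All groups shared the same medium, Artemis Medium-1 with human serum at 2%. No untreated group at 6 h or 24 h is among the samples used, so in the comparisons with untreated cells the agent and the time in culture cannot be told apart. No label says that the libraries of a group came from separate cultures, so p-values measure the spread between these libraries, which may be technical.

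Type I interferons bind a receptor made of IFNAR1 and IFNAR2, whose kinases JAK1 and TYK2 phosphorylate STAT proteins, STAT2 among them. With IRF9 these form the factor ISGF3, which binds the interferon-stimulated response element (ISRE) in the promoters of its targets, while interferon gamma acts through STAT dimers at gamma-activated sites (GAS). The targets' products sense viral RNA and DNA, degrade or edit RNA, hold virions at membranes, and attach the ubiquitin-like protein ISG15 to other proteins. NK cells respond to type I interferon and are themselves a source of interferon gamma.

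Promoter sequences of 33 of the 41 genes were at hand from RefSeq (GRCh38.p14, 250 bases before to 50 bases after each transcription start). The ISRE core GAAANNGAAA, searched on both strands, was present for 22 of these 33 genes (66.7%), against 4.38% of all 27305 genes with such a sequence. The GAS core TTCNNNGAA, which reads the same way on both strands, was present for 9 of 33 (27.3%), against 9.38% of all genes; a match of one core can overlap a match of the other. The stretches that follow, each from 150 bases before the start to 10 bases after it, are shown because they belong to members whose levels are contrasted below. ISG15 is the namesake target and was not called, IFITM1 rose, PARP14, SAMD9 and SAMD9L fell, and DTX3L was not called although it shares its match with PARP9, which fell. Capitals mark the ISRE and GAS cores.
ISG15: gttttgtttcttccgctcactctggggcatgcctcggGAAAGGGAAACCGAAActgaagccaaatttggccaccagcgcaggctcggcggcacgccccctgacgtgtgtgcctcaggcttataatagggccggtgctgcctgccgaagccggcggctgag
IFITM1: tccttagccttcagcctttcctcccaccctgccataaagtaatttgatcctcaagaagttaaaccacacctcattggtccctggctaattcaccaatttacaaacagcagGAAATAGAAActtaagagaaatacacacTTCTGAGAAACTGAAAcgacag
PARP14: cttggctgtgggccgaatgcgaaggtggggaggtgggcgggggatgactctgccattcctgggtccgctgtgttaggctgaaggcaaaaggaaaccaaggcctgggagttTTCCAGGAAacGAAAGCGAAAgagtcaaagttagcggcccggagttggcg
SAMD9: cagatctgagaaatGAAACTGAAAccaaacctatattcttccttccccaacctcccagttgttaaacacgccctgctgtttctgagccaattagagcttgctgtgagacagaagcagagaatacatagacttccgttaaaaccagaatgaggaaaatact
SAMD9L: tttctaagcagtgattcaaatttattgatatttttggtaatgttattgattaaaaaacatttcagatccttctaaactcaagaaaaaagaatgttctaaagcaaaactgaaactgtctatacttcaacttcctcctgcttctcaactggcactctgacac
DTX3L: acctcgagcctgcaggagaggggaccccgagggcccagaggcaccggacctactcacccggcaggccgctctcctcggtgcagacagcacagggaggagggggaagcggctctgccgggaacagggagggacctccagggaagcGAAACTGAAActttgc

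These stretches lie at chr1:1013347-1013506 (ISG15, plus strand), chr11:313890-314049 (IFITM1, plus), chr3:122680689-122680848 (PARP14, plus), chr7:93117970-93118129 (SAMD9, minus), chr7:93148376-93148535 (SAMD9L, minus) and chr3:122564188-122564347 (DTX3L, plus). In the ISG15 promoter, 2 overlapping ISRE cores begin 113 and 107 bases before the start. In the IFITM1 promoter the ISRE core GAAACTGAAA overlaps the GAS core TTCTGAGAA. The PARP14 promoter holds 1 core of each kind, with the ISRE core 29 bases and the GAS core 40 bases before the start. SAMD9 has 1 ISRE core 136 bases before its start, and no exact core is in the window of its neighbour SAMD9L. The ISRE core of DTX3L, at chr3:122564332-122564341, is also the match of PARP9, which is transcribed in the opposite direction from an overlapping start region. No core of either kind was found in the windows of ADAR, HERC6, IFI16, SAMD9L, SP100, STAT2 and XAF1. Exact matches describe these letters in this window and were not tested for binding.

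Each library held between 107117892 and 143575614 counts assigned to genes, and levels are given as CPM, the count divided by the TMM-scaled library size in units of 1000000 counts. A floor of 3 counts corresponds to between 0.0209 and 0.0278 CPM, for counting error only. TFRC, the transferrin receptor, was higher in every treated group, although agent and time cannot be told apart here either: its log2 fold change against untreated was 1.05 for DFO and 1.32 for T003 at 6 h, and 2.29 and 2.31 at 24 h. NK markers summed to 2730 to 3020 CPM over 16 genes, highest after 24 h of T003, with NKG7 the largest part (834 to 904 CPM). The sum hides moves in both directions. At 24 h PRF1 was higher (273 to 310 CPM, against 259 and 243 untreated). KLRD1 (39.7 to 42.6, against 49.9 and 50) and EOMES (150 to 160, against 171 and 173) were lower. CD7, TYROBP and FCER1G stood at 2.97 CPM or less. The B cell, platelet, erythroid and fibroblast or epithelial lists summed to less than 1 CPM in all libraries. The monocyte list summed to 7.84 to 10.6 CPM, most of it ITGAM (4.93 to 7.24 CPM) and CD68 (2.05 to 3.15 CPM), with CD14 at 0.211 CPM or less and LYZ at 0.037 CPM or less. The plasmacytoid dendritic cell list, whose defining marker CLEC4C was at 0, summed to 234 to 238 CPM in untreated cells and to 301 to 304 CPM after 24 h of T003. Most of that sum is GZMB, which is also an NK gene and stood at 228 and 233 CPM in untreated cells against 296 and 300 CPM after 24 h of T003; its part in the results was not tested. The T cell list summed to 454 to 501 CPM, most of it CD3E, with TRAC at 14.7 to 24.6 CPM and TRBC1 at 18.2 to 21.5 CPM, while CD3D was at 0.13 CPM or less. In bulk RNA, a change in the share of cells that express a gene and a change in RNA per cell cannot be told apart.

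The members covered a wide range of levels in these cells before any agent was added. Of the 40 tested, 7 averaged above 100 CPM over the 10 libraries and 17 averaged below 10 CPM. In CPM the highest 5 were ADAR, an RNA-editing enzyme, IFI16, a DNA sensor, PARP14, an ADP-ribosyltransferase, BST2 (tetherin), which holds virions at the cell surface, and IFITM1, a membrane protein that hinders viral entry. ADAR lay between 517 and 549 CPM, BST2 between 131 and 144 CPM, and IFI16, PARP14 and IFITM1 are given by library below. Divided by transcript length the order changed, since ADAR and PARP14 have long transcripts. In untreated cells IFITM1 then stood first at 202 CPM per kb, followed by IFI16 at 152, BST2 at 138, ADAR at 81.8 and IFI6, a mitochondrial antiapoptotic protein, at 59.1 CPM per kb. Over the 10 libraries the ranges of these genes per kb did not overlap for IFITM1 (183 to 241) and IFI16 (150 to 174), for IFI16 and BST2 (131 to 144), for BST2 and ADAR (78.2 to 83.1), or for ADAR and IFI6 (53.7 to 61.2). ISG15 followed at 39.1 and IRF1 at 28.1 CPM per kb, again without overlap of their ranges. From PARP14 downwards neighbours in the order overlapped in places, as for SP100 (15.7 to 18.7) and PARP9 (15.2 to 18.1). At the low end were IRF7 at 1.19, TRIM22 at 0.651, HERC6 at 0.563 and IFI44L at 0.175 CPM per kb, and IFI44L rested on only 121 to 208 counts a library.

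**Figure D1:**
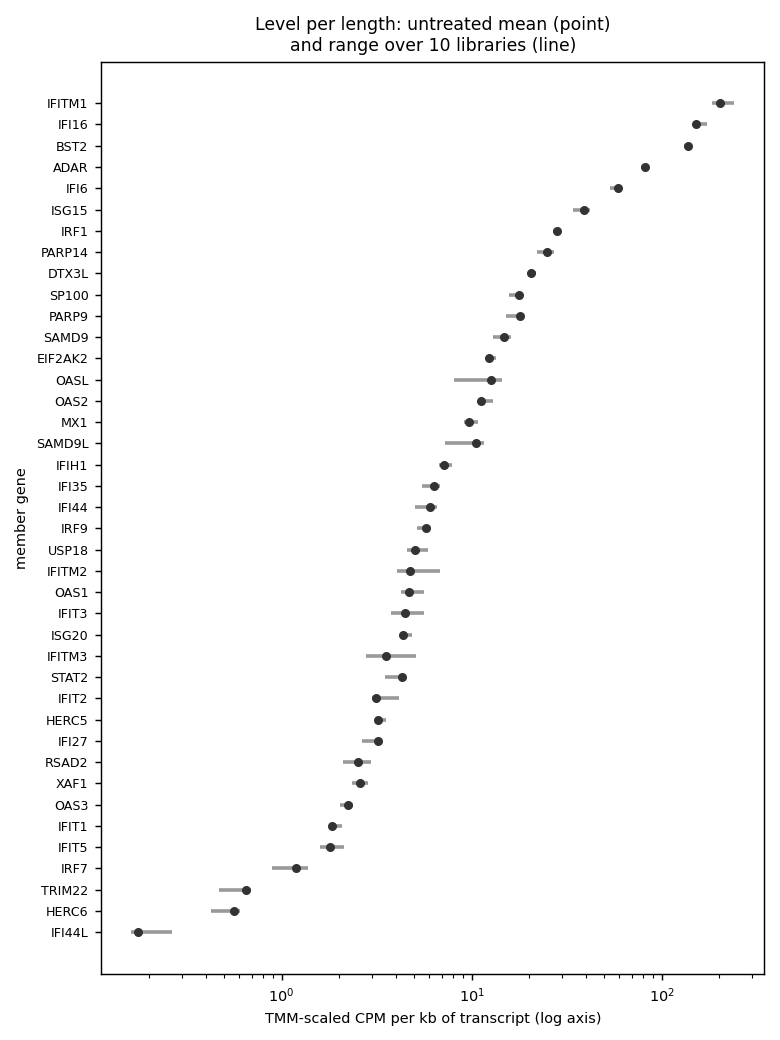
Level of the 40 members that were not at 0, in TMM-scaled CPM per kb of transcript (log axis), with the untreated mean as a point and the range over 10 libraries as a line. IFITM1 is highest at 202 and IFI44L lowest at 0.175 CPM per kb in untreated cells, and the lines of OASL and SAMD9L reach well below their untreated points.

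After 6 h of either agent no member passed the test (edgeR's quasi-likelihood test, Benjamini-Hochberg adjusted p under 0.05 over all genes tested, hereafter called). For DFO at 6 h, 0 of 40 members were called against 0.0248% of all genes tested. An unadjusted p under 0.05 was reached by 6 members, beside 2494 of all 20125 genes. Limma-voom called 0 members, beside 25 of all genes, and DESeq2 called 3 members, beside 522 of all genes. The 3 members were EIF2AK2 and PARP14 (higher) and IFITM1 (lower). For T003 at 6 h, 0 of 40 were called against 0.0298% of all genes. An unadjusted p under 0.05 was reached by 7 members, beside 1516 of all 20125 genes. Limma-voom and DESeq2 both called 0 members, beside 5 and 81 of all genes. Median log2 fold changes of the members were -0.01 for DFO and 0.00 for T003, beside 0.00 for all genes in both cases.

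After 24 h some members moved in each direction. With DFO, 3 of 40 were called higher (IFI16, IFITM1 and OAS2), against 3.43% of all genes, and 5 lower (OASL, SAMD9L, PARP9, PARP14 and SP100), against 3.27%. With T003, 3 were called higher (IFI16, IFIT2 and IFITM1), against 7.1% of all genes, and 7 lower (OASL, SAMD9L, STAT2, PARP9, SAMD9, SP100 and PARP14), against 5.44%. Between replicates, all genes had a wider spread than the members (SD of log2 differences 0.625 to 0.685 against 0.102 to 0.158). Shares of members and of all genes, here and below, therefore do not compare like with like. The members' median log2 fold change was -0.01 with DFO and 0.01 with T003, beside 0.00 and -0.01 for all genes. Below 0 were 21 of 40 members with DFO (52.5%, beside 50.6% of all genes) and 18 with T003 (45%, beside 51.6%). Every called change was smaller than 1.5-fold except that of OASL with DFO. Both comparisons share the untreated libraries, and their values are set side by side in what follows.

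**Figure D2:**
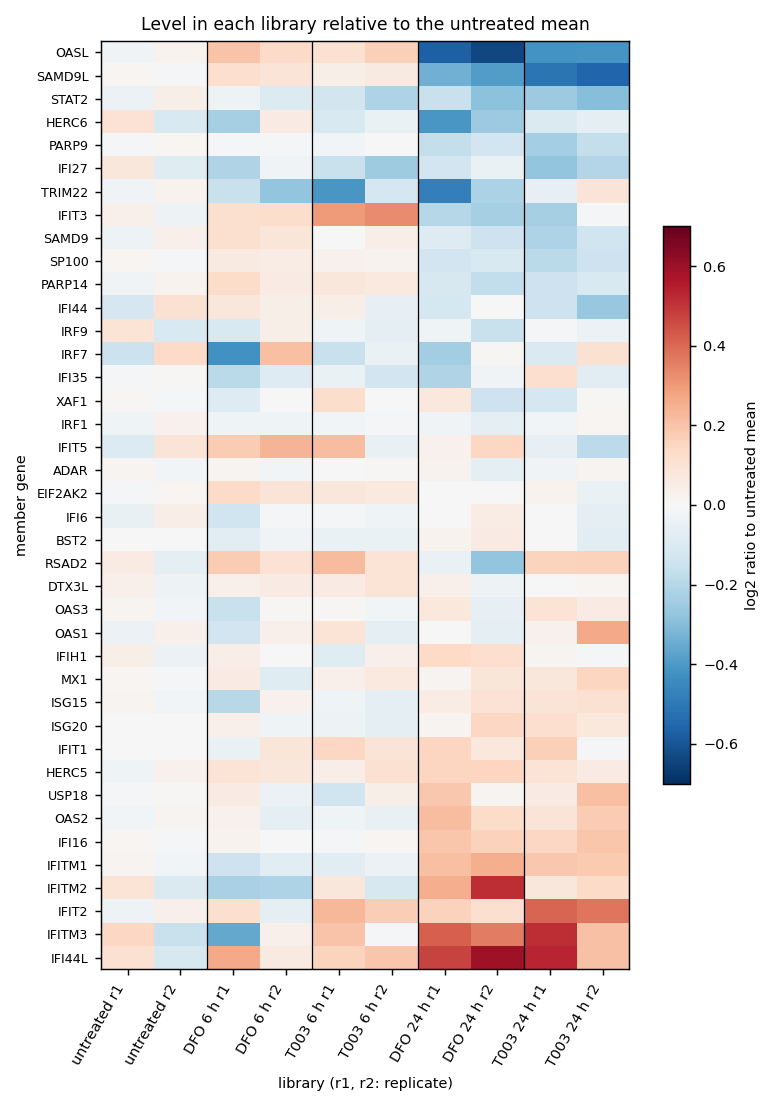
Log2 ratio of each member's level in each of the 10 libraries (columns, 2 per group) to its mean in the untreated libraries; rows are the 40 tested members ordered by their mean change at 24 h, and the colour scale ends at 0.7 in each direction. OASL and SAMD9L are low in all 4 libraries of 24 h, and IFI44L and IFITM3, which rest on few counts, show the most scatter among the high rows.

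Among the regulators, STAT2, a subunit of ISGF3, was lower after 24 h of T003. Its level was 18.5 and 19.6 CPM in the untreated libraries, 18.6 and 17.8 with DFO at 6 h, 17.4 and 16.4 with T003 at 6 h, 17.1 and 15.6 with DFO at 24 h, and 16.0 and 15.5 CPM with T003 at 24 h. All 4 libraries of 24 h lay below both untreated libraries. The log2 fold change was -0.28 ± 0.07 (SE) with T003 (adjusted p = 0.0199) and -0.22 ± 0.07 with DFO (adjusted p = 0.0794 by edgeR, but 0.031 by DESeq2 and 0.0455 by limma-voom). With T003 the call was lost without untreated replicate 2 (adjusted p = 0.152), T003 24 h replicate 1 (0.0686) or T003 24 h replicate 2 (0.125). IRF1, a factor induced by interferon gamma, stayed between 95.7 and 102 CPM in all libraries, the narrowest relative range among the members together with ADAR (highest over lowest library 1.06 for both). Its 95% intervals at 24 h ran from -0.10 to 0.02 on the log2 scale with DFO and from -0.06 to 0.06 with T003. IRF9, the DNA-binding subunit of ISGF3, ranged from 8.4 to 10 CPM, and IRF7, which drives interferon alpha genes, from 1.71 to 2.66 CPM. IRF9 shares near-identical stretches with another annotated gene over 93.1% of its transcript, so its counts are uncertain. Neither was called, and for IRF7 the intervals were wide (-0.55 to 0.33 with DFO and -0.43 to 0.45 with T003), since 185 to 353 counts a library stood behind it.

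In the OAS family, whose enzymes OAS1, OAS2 and OAS3 make the 2'-5' oligoadenylates that activate RNase L, the member without this activity moved most. OASL, which lacks the synthetase activity and binds the RNA sensor RIG-I, is at chr12:121017761-121039246. It stood at 40.6 and 42.0 CPM in untreated cells, 47.4 and 45.4 with DFO at 6 h, 44.4 and 46.3 with T003 at 6 h, 27.8 and 26.6 with DFO at 24 h, and 30.9 and 31.0 CPM with T003 at 24 h. All 4 libraries of 6 h were above the untreated ones and all 4 libraries of 24 h below them. Against untreated the log2 fold change at 24 h was -0.60 ± 0.04 with DFO (adjusted p = 2.05e-05) and -0.41 ± 0.04 with T003 (adjusted p = 0.000139), and both calls held without each library in turn. At 6 h the difference was 0.17 ± 0.04 with DFO (adjusted p = 0.2) and 0.14 ± 0.04 with T003 (adjusted p = 0.497), not called. OAS2 differed in direction from OASL: it stood at 51.2 and 52.6 CPM in untreated cells, 53.0 and 49.7 with DFO at 6 h, 50.9 and 50 with T003 at 6 h, 60.2 and 56.7 with DFO at 24 h and 55.3 and 58.6 CPM with T003 at 24 h. Every library of 24 h lay above every library of the other groups. Its change was called with DFO (0.17 ± 0.04, adjusted p = 0.0434) and not with T003 (0.13 ± 0.04, adjusted p = 0.0802 by edgeR, but 0.0332 by DESeq2). The call with DFO was lost on leaving out 1 untreated, 1 T003 6 h or 1 DFO 24 h library (adjusted p 0.0536 to 0.209). OAS1, at 6.92 to 9.14 CPM, and OAS3, at 13.3 to 15.8 CPM, were not called in any comparison.

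SAMD9 and SAMD9L are neighbouring paralogues on chromosome 7 that restrict poxviruses and limit cell growth. SAMD9L, at chr7:93130056-93148385, had 76.9 and 75.3 CPM in untreated cells, 82.7 and 81.0 with DFO at 6 h, 78.4 and 79.5 with T003 at 6 h, 60.3 and 58.1 with DFO at 24 h, and 53.3 and 51.7 CPM with T003 at 24 h. The libraries of 24 h lay below all others, with those of T003 below those of DFO. It fell by 0.36 ± 0.03 on the log2 scale with DFO (adjusted p = 7.58e-05) and by 0.53 ± 0.03 with T003 (adjusted p = 6.04e-06), and both calls held without each library in turn. SAMD9, at chr7:93099518-93117979, had 99.3 and 104 CPM in untreated cells, 110 and 108 with DFO at 6 h, 102 and 105 with T003 at 6 h, 95.6 and 92.0 with DFO at 24 h, and 87.5 and 92.4 CPM with T003 at 24 h. The order of the groups was that of SAMD9L, with smaller steps. Its change was -0.17 ± 0.04 with T003 (adjusted p = 0.00854) and -0.12 ± 0.04 with DFO (adjusted p = 0.0883 by edgeR and 0.0278 by DESeq2). The T003 call was lost without untreated replicate 2 (adjusted p = 0.0926) or T003 24 h replicate 1 (0.0735).

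The ADP-ribosylation group divided: PARP9 and PARP14 fell at 24 h and DTX3L, the ubiquitin ligase that acts in a complex with PARP9, was not called. PARP9 had 54.0 and 55.0 CPM in untreated cells, 54.0 and 54.2 with DFO at 6 h, 53.8 and 54.3 with T003 at 6 h, 48.5 and 49.6 with DFO at 24 h, and 46.2 and 48.6 CPM with T003 at 24 h. The untreated and 6 h libraries lay close together, and the libraries of 24 h below them all. The log2 change was -0.15 ± 0.03 with DFO (adjusted p = 0.0229) and -0.20 ± 0.03 with T003 (adjusted p = 0.0031), the latter held without each library in turn. DTX3L, whose transcription start lies within the PARP9 gene and is read in the opposite direction, ranged from 115 to 126 CPM, and its 95% interval at 24 h was -0.07 to 0.08 with DFO and -0.06 to 0.09 with T003. Strand use in the counting was not given in the sources used here, so reads from the overlap of PARP9 and DTX3L could have been assigned to either gene. PARP14, which counters viral infection through ADP-ribosylation, stood at 187 and 194 CPM in untreated cells, 208 and 198 with DFO at 6 h, 201 and 200 with T003 at 6 h, 176 and 169 with DFO at 24 h, and 172 and 177 CPM with T003 at 24 h. Libraries of 24 h lay below the untreated ones, and those of 6 h above them. The change was -0.14 ± 0.03 with DFO (adjusted p = 0.0273) and -0.13 ± 0.03 with T003 (adjusted p = 0.0277). Several of these calls were lost when 1 library was left out, in fits with fewer libraries to estimate the spread. Over all such fits the log2 change was -0.165 to -0.13 for PARP9 and -0.165 to -0.105 for PARP14 with DFO. For PARP14 with T003 it was -0.154 to -0.1. With DFO, PARP9 was lost without either untreated, either DFO 24 h or the second T003 6 h library (adjusted p 0.0541 to 0.197), and PARP14 without untreated replicate 2 (0.228) or DFO 24 h replicate 2 (0.215). With T003, PARP14 was lost without untreated replicate 2 (0.193), T003 24 h replicate 1 (0.163) or T003 24 h replicate 2 (0.0558).

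SP100, a nuclear body protein that silences incoming viral DNA, also fell with both agents. It stood at 97.6 and 95.6 CPM in untreated cells, 101 and 100 with DFO at 6 h, 98.6 and 98.4 with T003 at 6 h, 88.0 and 89.7 with DFO at 24 h, and 84.9 and 87.4 CPM with T003 at 24 h. Its libraries of 24 h were the 4 lowest. The log2 change was -0.12 ± 0.03 with DFO (adjusted p = 0.0203) and -0.17 ± 0.03 with T003 (adjusted p = 0.00217). The DFO call was lost without any one of the untreated or DFO 24 h libraries (adjusted p 0.0838 to 0.155), and the T003 call held without each library in turn. TRIM22, an antiviral ubiquitin ligase, was present at 1.35 to 2 CPM and not called.

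**Figure D3:**
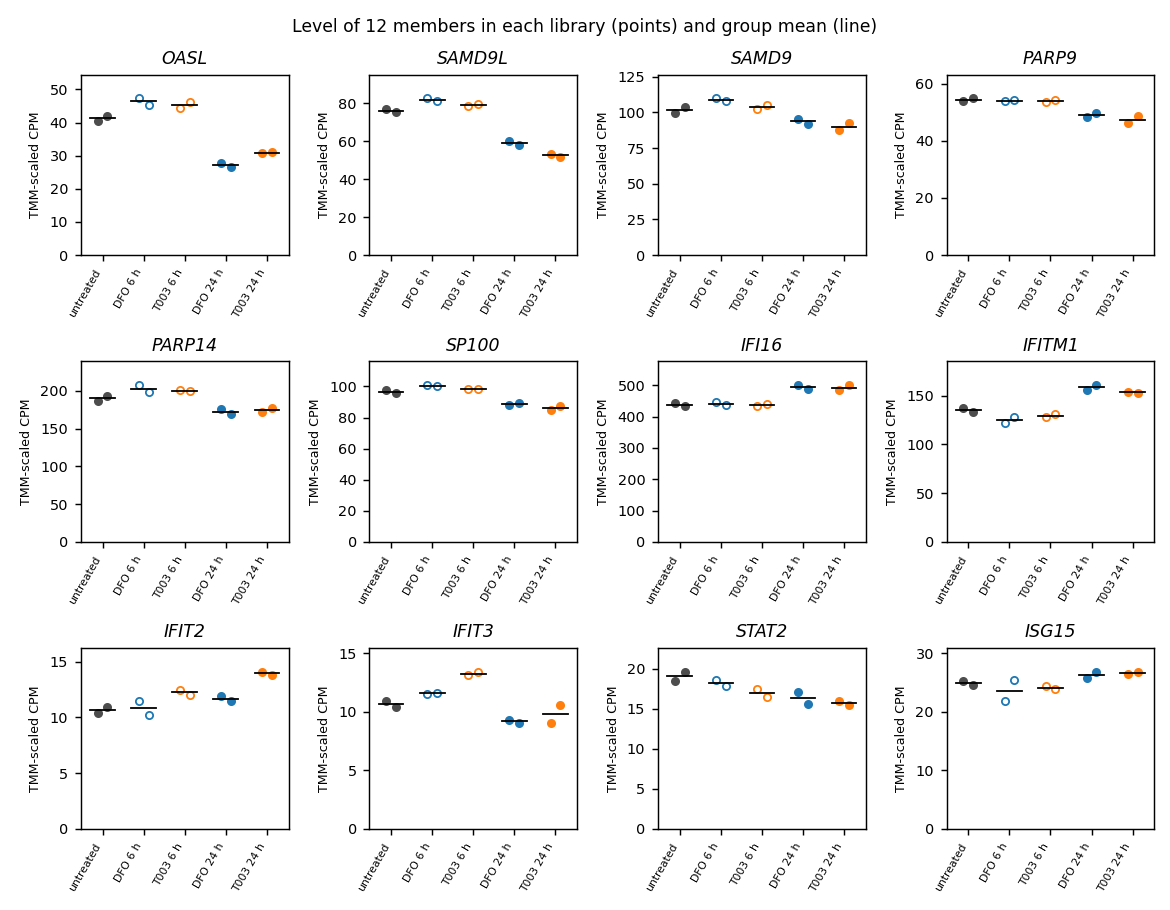
Level of 12 members in TMM-scaled CPM, each library as a point (2 per group) and the group mean as a line, on axes that start at 0. In the 6 panels from OASL to SP100 the points of 24 h lie below the untreated ones, in IFI16, IFITM1 and IFIT2 above them, and ISG15 stays between 21.8 and 26.8 CPM.

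Among the nucleic acid sensors and RNA-binding enzymes, IFI16 alone was called at 24 h against untreated, and it rose. IFI16, a nuclear sensor of foreign DNA at chr1:158999976-159055151, had 442 and 433 CPM in untreated cells, 445 and 436 with DFO at 6 h, 435 and 441 with T003 at 6 h, 501 and 489 with DFO at 24 h, and 484 and 501 CPM with T003 at 24 h. The 4 libraries of 24 h were above all 6 others. The log2 change was 0.18 ± 0.02 with DFO (adjusted p = 0.00148) and 0.17 ± 0.02 with T003 (adjusted p = 0.00118), held without each library in turn. Its span overlaps that of AIM2, another DNA sensor. ADAR, the most abundant member in CPM, was not called, and its 95% interval at 24 h was -0.09 to 0.05 with DFO and -0.07 to 0.06 with T003. EIF2AK2, the RNA-activated kinase PKR, stood at 122 and 124 CPM in untreated cells, 135 and 131 with DFO at 6 h, 130 and 129 with T003 at 6 h, 123 and 123 with DFO at 24 h, and 125 and 119 CPM with T003 at 24 h. Its libraries of 6 h were the 4 highest, but neither agent was called against untreated at 6 h by edgeR. IFIH1 (MDA5, a sensor of long double-stranded RNA), at 24.1 to 28.2 CPM, and ISG20, an RNA exonuclease, at 6.64 to 7.68 CPM, were not called.

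The membrane restriction factors were led by IFITM1, which had 137 and 133 CPM in untreated cells, 122 and 128 with DFO at 6 h, 128 and 131 with T003 at 6 h, 156 and 161 with DFO at 24 h, and 154 and 153 CPM with T003 at 24 h. Libraries of 6 h lay below the untreated ones and libraries of 24 h above all others. At 24 h it rose by a log2 change of 0.23 ± 0.03 with DFO (adjusted p = 0.00111) and 0.19 ± 0.03 with T003 (adjusted p = 0.00248), held without each library in turn. IFITM2, which acts in endosomes, was far lower, at 5.11 and 4.47 CPM in untreated cells, 4.09 and 4.12 with DFO at 6 h, 5.07 and 4.43 with T003 at 6 h, 5.71 and 6.85 with DFO at 24 h, and 5.06 and 5.26 CPM with T003 at 24 h. The DFO libraries of 24 h were its 2 highest. Against untreated it was called with neither agent by edgeR (0.39 ± 0.12 with DFO, adjusted p = 0.0808, though 0.044 by DESeq2, and 0.11 ± 0.12 with T003, adjusted p = 0.675). IFITM3, the best known endosomal member, lay between 1.69 and 3.1 CPM and was not called. Near-identical stretches of at least 101 bases, the length of a read, cover 57.2% of the IFITM1, 13.8% of the IFITM2 and 22.7% of the IFITM3 transcript. IFITM1 shares such stretches with IFITM2 and with IFITM3, and each of these genes shares them with another annotated gene. The part that falls to each partner was not separated. Counts of the low members IFITM2 and IFITM3 are therefore uncertain next to IFITM1. BST2 was not called in any comparison.

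Within the IFIT family of RNA-binding proteins, IFIT2 and IFIT3 lie next to each other on chromosome 10. At 24 h against untreated, IFIT2 was called with T003 and IFIT3 with neither agent. IFIT2 had 10.4 and 10.9 CPM in untreated cells, 11.5 and 10.2 with DFO at 6 h, 12.5 and 12 with T003 at 6 h, 11.9 and 11.5 with DFO at 24 h, and 14.1 and 13.8 CPM with T003 at 24 h. The T003 libraries of 24 h were the highest and those of 6 h next. It was called with T003 at 24 h (0.39 ± 0.07, adjusted p = 0.00612) and not with DFO (0.14 ± 0.07, adjusted p = 0.376), while the difference between the agents at 24 h was not called (-0.25 ± 0.07, DFO minus T003, adjusted p = 0.141). Without T003 24 h replicate 1 the T003 call was lost (adjusted p = 0.0513). IFIT3 had 10.9 and 10.4 CPM in untreated cells, 11.5 and 11.6 with DFO at 6 h, 13.1 and 13.4 with T003 at 6 h, 9.27 and 9.07 with DFO at 24 h, and 9.07 and 10.6 CPM with T003 at 24 h. It was highest after 6 h of T003, and was called against untreated at neither time (0.32 ± 0.08 at 6 h of T003, adjusted p = 0.424). IFIT1, at 7.69 to 8.9 CPM, and IFIT5, at 6.4 to 8.57 CPM, were not called.

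No member of the ISG15 system was called. ISG15 had 25.2 and 24.6 CPM in untreated cells, 21.8 and 25.4 with DFO at 6 h, 24.4 and 23.8 with T003 at 6 h, 25.8 and 26.7 with DFO at 24 h, and 26.5 and 26.8 CPM with T003 at 24 h. The libraries of 24 h were above the untreated ones by little, and the 2 libraries of 6 h of DFO lay further apart than most groups. The 95% interval of its log2 change at 24 h was -0.07 to 0.22 with DFO and -0.05 to 0.24 with T003. HERC5, its main ligase, lay at 11 to 12.5 CPM, HERC6, a relative of that ligase, at 1.6 to 2.28 CPM, and USP18, which removes ISG15 and restrains the receptor, at 8.55 to 10.9 CPM. USP18 shares near-identical stretches with USP41 and other copies over 83.0% of its transcript, so its counts are uncertain. MX1, a GTPase that blocks viral replication, lay at 25.4 to 29.9 CPM and was not called, and its relative MX2 was listed at 0. A gene can be listed at 0 because of how the counting assigned reads to names, so the 0 of MX2 is not evidence that it was not expressed.

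The remaining members were IFI6, IFI27, IFI35, IFI44, IFI44L, RSAD2 (viperin, which makes an antiviral nucleotide) and XAF1 (a proapoptotic protein), and none was called in any comparison by edgeR. From 6 h to 24 h of DFO, RSAD2 was called lower by DESeq2 (log2 change -0.29, adjusted p = 0.04) and with a filter of 1 CPM (-0.30, adjusted p = 0.0432). Their levels ran from IFI44L at 0.945 to 1.54 CPM to IFI6 at 43.6 to 49.7 CPM. RSAD2 stood at 8.40 and 7.16 CPM after 24 h of DFO and at 9.63 and 9.67 CPM after 24 h of T003, without overlap, and the difference was not called (-0.31 ± 0.09, adjusted p = 0.149). IFI44L had the largest estimated rise with DFO at 24 h, 0.53 ± 0.17 on the log2 scale, and was not called (adjusted p = 0.101). In all, 26 of the 40 tested members (65%) were called in none of the 8 comparisons by edgeR, beside 79.7% of all genes tested. As above, all genes had a wider spread between replicates than the members, so these shares do not compare like with like. In these 26 members the highest library exceeded the lowest by 1.06 to 1.84 times (median 1.22).

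**Figure D4:**
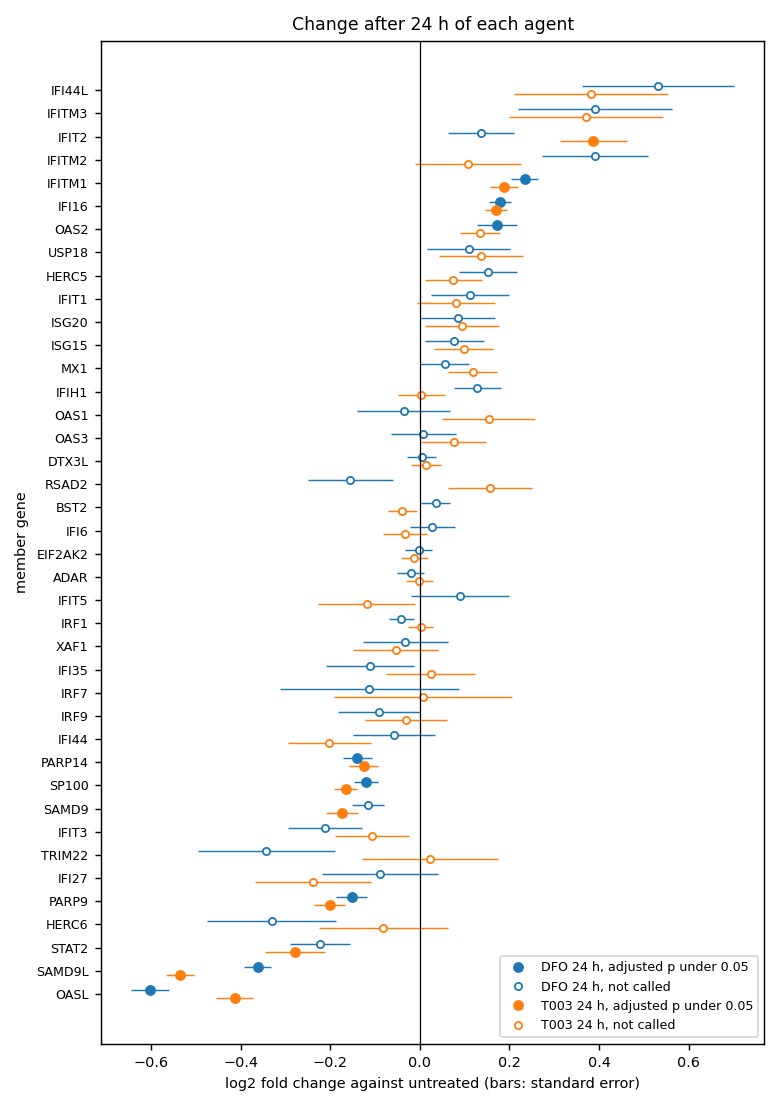
Log2 fold change against untreated with DFO (blue) and with T003 (orange) at 24 h for the 40 tested members, with standard errors as bars and filled points where the adjusted p was under 0.05; both agents are compared with the same untreated libraries. OASL and SAMD9L are lowest, at -0.60 and -0.36 with DFO and -0.41 and -0.53 with T003; with DFO the uncalled TRIM22 (-0.34) and HERC6 (-0.33) lie close to SAMD9L, and the members with the largest estimates at the high end, such as IFI44L, have wide bars.

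A direct comparison of the agents at matched times addressed whether they differed. At 6 h, 0 of 40 members were called between DFO and T003, and 0.0% of all genes (0 by edgeR). An unadjusted p under 0.05 was reached by 2 members, IFIT2 and IFIT3, beside 1334 of all 20125 genes. DESeq2 and limma-voom both called 0 members, beside 14 and 1 of all genes. At 24 h, 1 of 40 members was called, against 1.34% of all genes. That member was SAMD9L, higher with DFO than with T003 (log2 difference 0.17 ± 0.03, adjusted p = 0.0313), with 60.3 and 58.1 CPM against 53.3 and 51.7 CPM. The call was lost when any one of the T003 6 h, DFO 24 h or T003 24 h libraries was left out (adjusted p 0.057 to 0.19) and when the 4 compared libraries were fitted alone (0.114). OASL differed in the other direction (-0.19 ± 0.04, adjusted p = 0.0597 by edgeR, 0.00778 by DESeq2). The median difference of the members was 0.01, beside 0 for all genes.

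The comparison of 24 h with 6 h of the same agent does not contrast the untreated group. The group means compared for DFO and for T003 come from different libraries. All 10 libraries still entered 1 fit with a common filter, scaling and estimate of the spread, so these comparisons are not independent. With DFO, 4 of 40 members were called higher at 24 h, against 5.29% of all genes, and 8 lower, against 4.6%. With T003, 3 were called higher, against 7.55%, and 7 lower, against 5.93%. The shares of all genes changed when single libraries were left out. Over all genes, 1991 were called with DFO and 2714 with T003, and fewer when any one of the compared libraries was left out. Such a fit leaves a single library in a group, and the fall differed between libraries. All 10 members called with T003 were also called with DFO in the same direction, which is 83.3% of the DFO calls. Over all genes 1297 were shared in the same direction, which is 65.1% of the DFO and 47.8% of the T003 calls. Those higher with both were IFI16, IFITM1 and OAS2, and those lower were OASL, SAMD9L, SAMD9, PARP9, PARP14, SP100 and IFIT3. The largest was OASL, with a log2 change of -0.77 ± 0.04 for DFO (adjusted p = 2.4e-06) and -0.55 ± 0.04 for T003 (adjusted p = 1.55e-05). SAMD9L changed by -0.47 ± 0.03 (adjusted p = 6.99e-06) and -0.59 ± 0.03 (adjusted p = 2.08e-06), respectively. IFITM1 rose by 0.34 ± 0.03 (adjusted p = 5.82e-05) and 0.25 ± 0.03 (adjusted p = 0.000426).

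IFIT3, which was not called against untreated, fell from 6 h to 24 h by 0.34 ± 0.08 with DFO (adjusted p = 0.0268) and by 0.43 ± 0.08 with T003 (adjusted p = 0.0056). With DFO alone, IFITM2 rose by a log2 change of 0.61 ± 0.12 (adjusted p = 0.00808) and EIF2AK2 fell by 0.11 ± 0.03 (adjusted p = 0.0345); whether these differ between the agents was not tested. Calls of IFIT3 with DFO were lost without any one of the DFO libraries (adjusted p 0.0965 to 0.159) and with T003 without T003 24 h replicate 1 (0.0536). IFITM2 was lost without DFO 6 h replicate 1 (0.0545) or DFO 24 h replicate 2 (0.0808). EIF2AK2 was lost without untreated replicate 2 or any one of the 6 h and DFO 24 h libraries (0.0505 to 0.235). PARP9 with DFO was lost without any one of the DFO libraries or T003 6 h replicate 2 (0.0587 to 0.165). OAS2 was lost with DFO without DFO 6 h replicate 2 (0.103) or DFO 24 h replicate 1 (0.119), and with T003 without either T003 6 h library or T003 24 h replicate 2 (0.113 to 0.173). Of the 41 calls of members over all 8 comparisons, 25 held without each library in turn.

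Other genes of the pathway, from lists drawn up with earlier results of these data known, were read in the same fits, with members left out of the counts. Beside the list counts at 24 h stand the shares of all genes: 3.43% higher and 3.27% lower with DFO, and 7.1% and 5.44% with T003. Whether a list differed from these shares was not tested. Of 21 interferon ligand genes only IFNG and IFNL1 passed the filter. IFNB1 had at most 15 counts in any library, IFNA14 at most 16, and IFNL1 between 7 and 39. IFNG, the gene of interferon gamma, had 8.31 and 6.02 CPM in untreated cells, 6.65 and 6.30 with DFO at 6 h, 6.42 and 6.28 with T003 at 6 h, 12.3 and 13.3 with DFO at 24 h, and 16.3 and 15.3 CPM with T003 at 24 h. It was higher in all 4 libraries of 24 h than in any other. The log2 change was 0.83 ± 0.13 with DFO (adjusted p = 0.00259) and 1.14 ± 0.13 with T003 (adjusted p = 0.000227).

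Of 8 tested receptor chains and kinases 1 was called with each agent at 24 h, IFNAR2, a chain of the type I receptor, which rose from 55.6 and 54.0 CPM to 69.0 and 66.3 CPM with DFO (0.30 ± 0.04, adjusted p = 0.00129) and to 66.0 and 62.6 CPM with T003 (0.23 ± 0.04, adjusted p = 0.00393). IFNLR1 was listed at 0 and IFNGR2, a chain of the interferon gamma receptor, had 0 to 17 counts; as for MX2, these values may reflect how reads were assigned to names and do not show a lack of expression. Of 8 other STAT and IRF factors, 2 were higher and 1 lower with DFO, and 3 higher with T003. IRF8, a lymphoid and myeloid factor, rose from 90.9 and 82.7 CPM to 128 and 132 CPM with DFO (0.58 ± 0.04, adjusted p = 1.82e-05) and to 129 and 124 CPM with T003 (0.54 ± 0.04, adjusted p = 1.91e-05). IRF2, which competes with IRF1, rose by a log2 change of 0.29 ± 0.05 with each agent (adjusted p = 0.00561 with DFO, lost without untreated replicate 2 at 0.0702, and 0.00323 with T003). IRF4, a lymphocyte factor, rose with T003 by 0.19 ± 0.02 (adjusted p = 0.000545). STAT3 fell with DFO by 0.11 ± 0.03 (adjusted p = 0.0337), and the call ended on leaving out any untreated, T003 6 h or DFO 24 h library (0.0618 to 0.169).

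Of 13 tested nucleic acid sensors and adaptors, 0 were called with DFO at 24 h by edgeR. An unadjusted p under 0.05 was reached by 5 of them, beside 3822 of all 20125 genes. DESeq2 called 3 of them, beside 1867 of all genes, and limma-voom 1, beside 1520 of all genes. With T003, 1 was higher (TICAM1, the adaptor of TLR3) and 3 lower (TRIM25, MAVS and IKBKE, which relay the RIG-I signal). The T003 changes were 0.30 ± 0.08 for TICAM1 (adjusted p = 0.0268) and -0.26 ± 0.07 for IKBKE (adjusted p = 0.0315), with -0.11 for TRIM25 (adjusted p = 0.0146) and -0.10 for MAVS (adjusted p = 0.0255). Each of these 4 calls was lost without untreated replicate 2 or T003 24 h replicate 1, and those of TRIM25, MAVS and IKBKE also without other libraries, with adjusted p over the losing libraries of 0.216 to 0.233 for TICAM1, 0.0519 to 0.215 for IKBKE, 0.0534 to 0.103 for TRIM25 and 0.0655 to 0.146 for MAVS. In the negative feedback list 1 of 5 tested genes was called with each agent, PTPN6, the phosphatase SHP-1, at 0.61 ± 0.13 with DFO (adjusted p = 0.0149) and 0.46 ± 0.13 with T003 (adjusted p = 0.0343). Both PTPN6 calls were lost without untreated replicate 2 or any one library of DFO 24 h, and the T003 call also without either library of T003 24 h (adjusted p 0.0504 to 0.157 with DFO and 0.0509 to 0.273 with T003). The 2 further genes of ISG15 conjugation, UBA7 and UBE2L6, were not called at 24 h against untreated (0 by edgeR, DESeq2 and limma-voom, and 0 at an unadjusted p under 0.05). From 6 h to 24 h of DFO, 1 of these 2 was called higher by edgeR, beside 5.29% of all genes. From 6 h to 24 h of T003, 0 were called.

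Of 9 tested interferon gamma targets, 3 were higher and 1 lower with DFO, and 2 higher and 1 lower with T003. The 1 called lower with DFO is not among the at most 4 called genes named from this list. By level, APOL6 had 94.6 and 101 CPM in untreated cells and 87.3 and 87.1 CPM after 24 h of DFO. WARS1 had 119 and 126 CPM, and 113 and 113 CPM, respectively. ICAM1, an adhesion molecule, had 82.7 and 78.2 CPM in untreated cells, 98.9 and 99.1 CPM after 24 h of DFO (0.30 ± 0.04, adjusted p = 0.0014) and 109 and 109 CPM after 24 h of T003 (0.44 ± 0.04, adjusted p = 7.83e-05). Of the guanylate-binding proteins, which attack vacuoles of pathogens, GBP4 rose with DFO (0.13 ± 0.03, adjusted p = 0.0273) and T003 (0.13 ± 0.03, adjusted p = 0.0174). GBP5 rose with DFO (0.24 ± 0.05, adjusted p = 0.0151) and GBP3 fell with T003 (-0.24 ± 0.05, adjusted p = 0.0165). Each of these 4 calls was lost without untreated replicate 2. Those with DFO were also lost without DFO 24 h replicate 1, and those with T003 without T003 24 h replicate 1. The call of GBP3 was lost without any one untreated or T003 24 h library. Such fits leave 1 library in a group. With any one library left out, the log2 change of GBP4 was 0.0948 to 0.176 with DFO and 0.0896 to 0.172 with T003. It was 0.176 to 0.316 for GBP5 with DFO and -0.269 to -0.206 for GBP3 with T003. The chemokine CXCL9 was listed at 0. Of 31 further interferon-stimulated genes tested, 2 were higher and 4 lower with DFO, beside 3.43% and 3.27% of all genes. With T003, 3 were higher and 6 lower, beside 7.1% and 5.44% of all genes. The cytidine deaminases APOBEC3F and APOBEC3G, which mutate viral DNA, were among those that fell. APOBEC3F had 63.5 and 65.7 CPM in untreated cells, 46.3 and 46.3 CPM after 24 h of DFO (-0.48 ± 0.03, adjusted p = 1.36e-05) and 51.1 and 52.5 CPM after 24 h of T003 (-0.32 ± 0.03, adjusted p = 0.000107). APOBEC3G fell by 0.32 ± 0.03 and 0.20 ± 0.03 (adjusted p = 7.81e-05 and 0.00095). N4BP1, an RNase that restricts viruses, fell by 0.23 ± 0.03 and 0.27 ± 0.03 (adjusted p = 0.00109 and 0.000263), and SHISA5, a proapoptotic membrane protein, rose with T003 by 0.13 ± 0.02 (adjusted p = 0.00311).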

How the data were processed

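The members, the pathway lists and the rule for naming genes were chosen with earlier results of these data known. Per the series' design text, the 101 bp paired reads passed through fastp 0.21.0 for trimming, HISAT2 2.2.1 for alignment (hg38) and StringTie 2.1.6 for counts on RefSeq genes. The deposited values are estimated counts per gene, which the authors gave as whole numbers without normalization. Strand use in counting was not given in the sources used here. Every column was matched to a sample by its name.

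Counts were tested in R 4.3.3 with edgeR 4.0.16 (TMM scaling, filterByExpr with a minimum count of 10, quasi-likelihood test on the means of 5 groups) over all 10 libraries, which share 1 estimate of the spread (5 residual degrees of freedom), and p-values were adjusted over 20125 genes. Differences are log2 fold changes with standard errors. Alternatives were DESeq2 1.42.0, limma-voom (limma 3.58.1), the replicate number as a block, RLE scaling, each library left out, a minimum fold of 1.5, the compared libraries alone, and other filters (1 CPM in 2 libraries, or none). Named were the 4 regulators, every called member, the 5 highest members, members not tested, and at most 4 called genes of each other list. Transcript lengths are those of GENCODE 44. Near-identical stretches were found with BLAST 2.17.0 at 98% identity or more among the transcripts of GENCODE 44, whereas counting used RefSeq genes.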

Additional observations from a re-analysis of the deposited data

Results flagged for a closer look

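One difference between the agents and several between times passed edgeR's quasi-likelihood test of the difference itself, as given above with their errors, libraries and limits. Between the agents at 24 h, SAMD9L was higher with DFO than with T003 by 0.172 on the log2 scale.

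Between 24 h and 6 h of DFO, the log2 differences of members that were higher at 24 h were 0.611 for IFITM2, 0.343 for IFITM1, 0.188 for OAS2 and 0.168 for IFI16. Those of members that were lower at 24 h were -0.771 for OASL, -0.468 for SAMD9L, -0.336 for IFIT3, -0.234 for PARP14, -0.217 for SAMD9, -0.178 for SP100, -0.141 for PARP9 and -0.113 for EIF2AK2.

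Between 24 h and 6 h of T003, the differences of members that were higher at 24 h were 0.245 for IFITM1, 0.174 for OAS2 and 0.168 for IFI16. Those of members that were lower were -0.588 for SAMD9L, -0.551 for OASL, -0.43 for IFIT3, -0.205 for SAMD9, -0.202 for PARP14, -0.194 for SP100 and -0.19 for PARP9. Time in culture and length of exposure to the agent cannot be told apart in these differences.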

How the results depend on the processing

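Of 70 called values (members in any comparison and the named pathway genes at 24 h), all 70 kept their direction and call under RLE scaling, no filter, the 1 CPM filter, DESeq2 and limma-voom, 61 when the compared libraries were fitted alone, and 7 when a fold change of at least 1.5 was required. Leaving out 1 library ended 97 of 700 calls. RLE scaling moved the median of all genes by at most 0.00316 in size.

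Counts of members called changed as follows. For DFO at 6 h, DESeq2 gave 3 in place of 0. For DFO at 24 h the 8 became 5 with the compared libraries alone, 1 with the fold requirement, 4 to 8 with a library left out, 9 with limma-voom or the 1 CPM filter and 11 with DESeq2. For T003 at 24 h the 10 became 0 with the fold requirement, 6 to 10 with a library left out and 11 with DESeq2. For DFO against T003 at 24 h the 1 became 2 with the 1 CPM filter and 2 with DESeq2, and 0 with the compared libraries alone or the fold requirement, and 0 to 1 with a library left out. For 24 h against 6 h, the fold requirement left 2 of 12 with DFO and 1 of 10 with T003, and DESeq2 and the 1 CPM filter gave 13 with DFO. The compared libraries alone gave 10 with DFO and again 10 with T003. Some fits with a library left out also gave fewer, with either agent. The causes were not tested, except that the fold requirement and smaller fits hold fewer calls or libraries by construction.

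Counts over all genes moved more. They were 1349 for DFO at 24 h (851 with the compared libraries alone, 160 with the fold requirement, 431 to 1383 with a library left out), 2524 for T003 at 24 h (268 with the fold requirement, 1084 to 2544), and 270 between the agents at 24 h (888 with DESeq2, 446 with the 1 CPM filter, 117 with the replicate block, 55 with the compared libraries alone, 14 to 229). DESeq2 called 522 genes for DFO at 6 h against 5, and 81 for T003 at 6 h against 6.

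Some uncalled values near 0 changed sign. With T003 at 24 h, IRF1 was -0.00767 with no filter, -0.00489 with the 1 CPM filter and -0.0279 to 0.0292 with a library left out, and IRF7 was -0.00239 with no filter and -0.132 to 0.155. IRF9 ran from -0.128 to 0.0722 and EIF2AK2 from -0.0536 to 0.0245. With DFO at 24 h, IRF7 ran from -0.248 to 0.0397, IRF9 from -0.185 to 0.0142 and EIF2AK2 from -0.0155 to 0.0148.

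No label says that replicate numbers pair libraries. Over all tested genes, the log2 differences between replicates 1 and 2 correlated between groups at -0.0521 to 0.0125. These differences had an SD of 0.625 to 0.685 over all genes and of 0.102 to 0.158 over the members. Noise of genes with few counts can hide a pairing, so the correlations cannot decide it. With the replicate block, 68 of the 70 calls held. OAS2 with DFO at 24 h had an adjusted p of 0.0625 and PTPN6 with T003 at 24 h of 0.0503, and the block left 7 members called for DFO at 24 h. With 2 libraries a group, small changes of genes with few counts, such as IFI44L, TRIM22, HERC6, IRF7 and IFITM3, were not detectable.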
